A study of Mus musculus with 18 samples.

Results

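Mouse embryonic stem cells (ESCs) that overexpress c-Myc, either the wild-type protein or the T58A mutant, were compared with their parental line, EBRTcH3, without and with the PI3K inhibitor LY294002. The comparison used 9 of the 18 arrays of the series. They were the 6 arrays of the c-Myc lines, namely 1 untreated, 1 day 2 and 1 day 5 sample of each line, and the 3 parental arrays that belong with them, namely untreated replicate 2, day 2 and day 5 replicate 2. The parental arrays were chosen because they shared the number format and the range of medians of the c-Myc arrays, and each array was compared within its day, so that the question was what differs between the lines and not what the drug did. All 9 samples were male 129SV cells grown with LIF and serum, and LY294002 was given for 2 or 5 days. The labels give neither the promoter behind c-Myc nor the number of clones in a line, and they do not say whether samples were separate cultures. The 3 samples of a line share that line, so p-values measure the spread between these 9 samples, and an effect of c-Myc cannot be told apart from any other difference between 2 c-Myc lines and 1 parental line. One label disagrees: the text with the untreated T58A array names N-Myc for the treated cells it is the reference of, and their own titles name c-Myc T58A, which was followed here.

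c-Myc is a transcription factor that binds DNA with its partner Max, most tightly at the E-box sequence, and its known targets serve growth: ribosome assembly, nucleotide synthesis and the cell cycle. With the factor Miz1 it is also known to lower genes, among them cell adhesion genes and CDK inhibitors. Phosphorylation of threonine 58, which needs GSK3, marks c-Myc for degradation, and PI3K signalling through Akt restrains GSK3, so the T58A change is known to make the protein more stable. In ESCs c-Myc is best known for sustaining self-renewal together with LIF signalling.

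The pattern was one of many small differences and a one-sided set of large ones. Cdkn2a, which encodes the cell cycle inhibitor p16Ink4a and the p53 activator p19Arf, and Rhox5, an X-linked homeobox gene, stood highest over parental cells. Many genes for adhesion and extracellular matrix lay lower, and genes for ribosome assembly and for nucleotides lay modestly higher. Of 12 antigen presentation genes 6 lay lower, but 1 did without the day 2 or the day 5 parental sample. Most of the 6 lay near parental cells when untreated, yet no gene passed the test for a difference that varied by day. Of 13420 genes 2203 passed limma's test at an adjusted p under 0.05 (16.4% of the genes tested), 1105 higher (8.23%) and 1098 lower (8.18%). At least 2-fold differences were nearly all in 1 direction, with 84 genes lower and 3 higher. The 84 include Kctd12b, which entered the test through the parental samples alone, and how many others did so was not counted. The median difference was 0.32 on the log2 scale for genes that rose and -0.46 for genes that fell, beside 0.05 for all genes tested. Without the day 5 parental sample 690 genes passed and without the day 2 one 703, and 886 did without the day 5 T58A sample; without the whole T58A line 0 passed, and without the wild-type line 60. Of the 2203 genes, 2135 had the same sign in all 6 differences, each taken between a c-Myc sample and the parental sample of its day. The test was made on these same differences, and the 2 lines share each parental sample, so this agreement is no separate support.

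**Figure D1:**
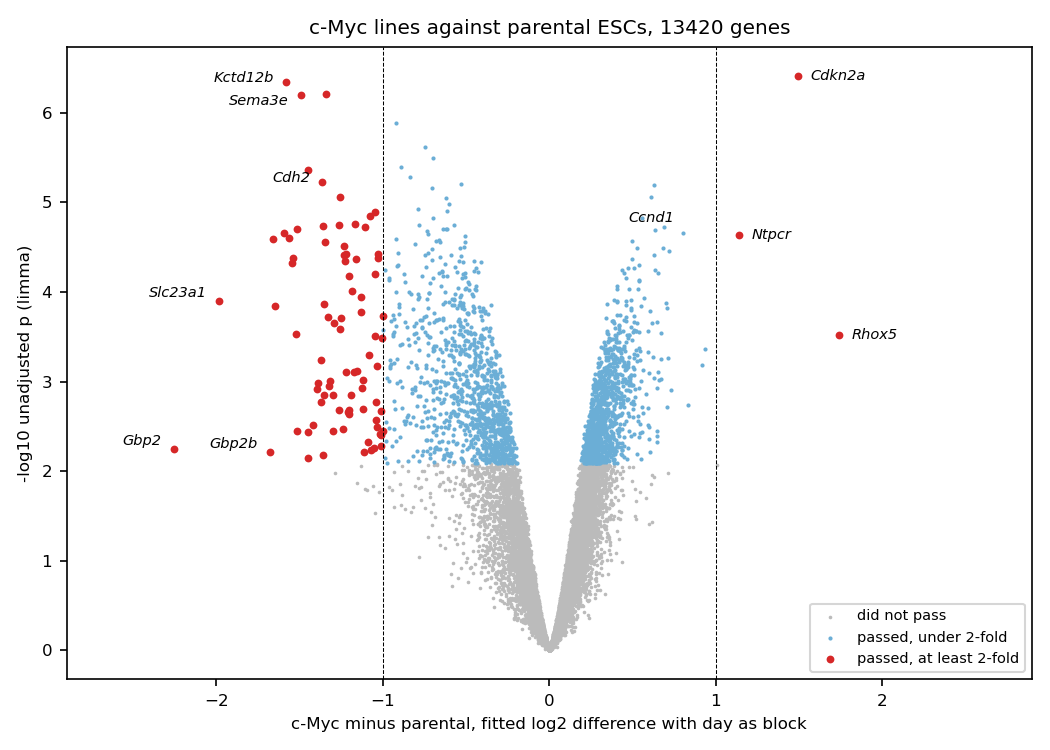
Fitted log2 difference, c-Myc lines minus parental ESCs with day as block, against the -log10 of limma's unadjusted p, 1 point per gene for 13420 genes, with broken lines at 2-fold. The 84 genes at least 2-fold lower that passed stand on the left and the 3 at least 2-fold higher, Cdkn2a, Rhox5 and Ntpcr, on the right. Kctd12b, on the left, entered the test through the parental samples alone.

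The manipulated gene was looked at first, and its probe set did not show the overexpression that the titles name. Myc read 7.43 in untreated parental cells, 7.51 in the wild-type line and 6.99 in the T58A line. At day 2 it read 9.19, 9.50 and 8.37 in the same order, and at day 5 it read 9.60, 9.60 and 9.55. The 3 lines overlapped, and the fitted difference was -0.16 ± 0.22 (SE; adjusted p = 0.621). In parental replicate 1, which lies in another array set, Myc read 9.30 untreated and 10.26 at day 5 as deposited. Myc had a single probe set, and it is not stated whether the introduced cDNA contains the sequence it detects, so these values check nothing about the construct. Mycn, the N-Myc gene that ESCs express strongly, read 11.33 in untreated parental cells, and the untreated wild-type line (10.07) and T58A line (9.33) were below it. Under LY294002 it read 12.38 against 11.83 and 11.60 at day 2 and 11.95 against 12.30 and 11.96 at day 5. By this probe set the lines stood apart at the untreated time and overlapped at day 5 (-0.70 ± 0.29, adjusted p = 0.118). Another Mycn probe set had the same order in untreated cells, at 7.16 against 6.99 and 6.01. A further one had the parental sample lowest, at 6.40 against 6.75 and 6.72. Max lay between 8.21 and 8.71 in all 9 samples and did not pass (0.15, adjusted p = 0.278).

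Within the Myc network, 2 of 14 genes rose (14.3%, against 8.23% of all genes) and none fell. With single samples left out 0 to 2 rose, and with no filter on low values 0 did. These were Mxi1, a Max partner that opposes Myc (0.32, adjusted p = 0.0475), and Mxd3 of the same family (0.26, adjusted p = 0.0489). Zbtb17, which encodes Miz1, had a difference of 0.23 (adjusted p = 0.0513), and Mga, the Max partner of a repressive complex, one of -0.27 (adjusted p = 0.0525). The network's median was -0.01, which turned above 0 when arrays were centred or quantile normalized.

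The largest rises held a cell cycle inhibitor beside a cell cycle driver. Cdkn2a read 6.16, 6.84 and 6.63 in parental cells untreated, at day 2 and at day 5. It read 7.30, 8.20 and 8.19 in the wild-type line and 7.73, 8.54 and 8.26 in the T58A line. Every c-Myc sample lay above every parental sample, the 6 differences ran from 1.14 to 1.70, and the fitted difference was 1.49 ± 0.11, or 2.81-fold (adjusted p = 0.0021). Ccnd1, the gene for cyclin D1, which drives cells into the cell cycle, was another of the 12 largest rises. It read 8.60, 8.51 and 8.56 in parental cells, 9.22, 9.69 and 9.21 in the wild-type line and 9.43, 9.40 and 9.19 in the T58A line, again without overlap (0.80 ± 0.10, adjusted p = 0.00727).

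Rhox5 had the largest fitted rise but an uneven one. Parental cells read 9.64, 8.30 and 9.18, the wild-type line 10.69, 11.26 and 9.98 and the T58A line 11.00, 11.04 and 10.71. The groups did not overlap, and the lines stood farthest apart at day 2, with differences of 2.96 and 2.74 there against 0.79 and 1.53 at day 5 (fitted 1.74 ± 0.30, adjusted p = 0.0133). Ntpcr, a nucleoside triphosphatase gene, was 2.20-fold higher (1.14 ± 0.14, adjusted p = 0.00727). Its values were 6.59, 7.20 and 7.48 in parental cells, 7.72, 8.11 and 8.28 in the wild-type line and 8.20, 8.55 and 8.52 in the T58A line, so all c-Myc samples exceeded all parental ones.

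The other 8 of the 12 largest rises were between 0.71 and 0.93. They were Mcrip2, the collagen gene Col13a1, Hpdl, Acaa2, which encodes a mitochondrial thiolase of fatty acid oxidation, Rapgef3, the cAMP-activated exchange factor Epac1, Adhfe1, Ydjc and Tead4, a transcription factor of the Hippo pathway. Mcrip2, Hpdl and Tead4 had no overlap between c-Myc and parental samples. The other 5 overlapped across days. Within each day both c-Myc samples exceeded the parental one, which the rule for named genes, 1 sign in all 6 differences, required. Over all genes tested, 874 had all 6 c-Myc samples above all 3 parental samples (6.51%), of which 504 passed, and 425 had them all below (3.17%), of which 330 passed.

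Slc23a1, which encodes a sodium-dependent vitamin C transporter, was the largest fall that held in every sample. It read 9.21, 8.78 and 8.21 in parental cells, 6.72, 6.68 and 7.61 in the wild-type line and 6.23, 6.26 and 7.01 in the T58A line. No c-Myc sample reached the lowest parental sample, and the gap was widest in untreated cells (-1.98 ± 0.31, 3.96-fold lower, adjusted p = 0.0107). Kctd12b read 5.91, 5.33 and 5.68 in parental cells and between 3.66 and 4.37 in the 6 c-Myc samples, below the filter level of 4.64 in all of them. It entered the test through the parental samples alone, so its values are given as a description, with no test.

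Several of the other named genes act outside the cell or at its surface. Sulf1, an enzyme that trims sulfate groups from heparan sulfate and so alters growth factor signalling, read 8.26, 8.53 and 8.80 in parental cells. It read 7.24, 7.29 and 7.20 in the wild-type line and 6.38, 7.19 and 6.80 in the T58A line, with no overlap (-1.52 ± 0.18, adjusted p = 0.00727). Wls, the carrier that brings Wnt proteins to the cell surface, fell by 1.54 (adjusted p = 0.00782), from 7.93, 7.41 and 8.22 to 6.96, 5.84 and 6.56 in the wild-type line and 6.49, 6.19 and 5.82 in the T58A line. All c-Myc samples again lay below all parental ones. Sema3e, a secreted guidance cue, read 7.04, 8.36 and 8.71 in parental cells, 5.59, 6.84 and 7.61 in the wild-type line and 5.23, 6.59 and 7.39 in the T58A line. Its level was higher at day 5 than untreated in all 3 lines, which makes the groups overlap across days, while the difference within a day stayed between -1.10 and -1.81 (fitted -1.49 ± 0.12, adjusted p = 0.0021).

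S100a6 and the annexin genes Anxa1 and Anxa3, all calcium-binding proteins, stood lower by 1.66, 1.52 and 1.65 (adjusted p = 0.00727, 0.0332 and 0.0109). Anxa1 read 5.74, 5.42 and 5.56 in untreated parental, wild-type and T58A cells, which are close together. At day 2 the lines read 7.44, 6.23 and 5.68 in that order, and at day 5 they read 10.41, 7.91 and 7.28, so the gap lay in the treated samples. Prtg and Colec12 encode cell surface receptors, Rnf128 a ubiquitin ligase and Trim12c a member of the tripartite motif family. Their fitted differences ran from -1.52 to -1.59, with the parental sample highest on each day, as the rule for named genes required.

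**Figure D2:**
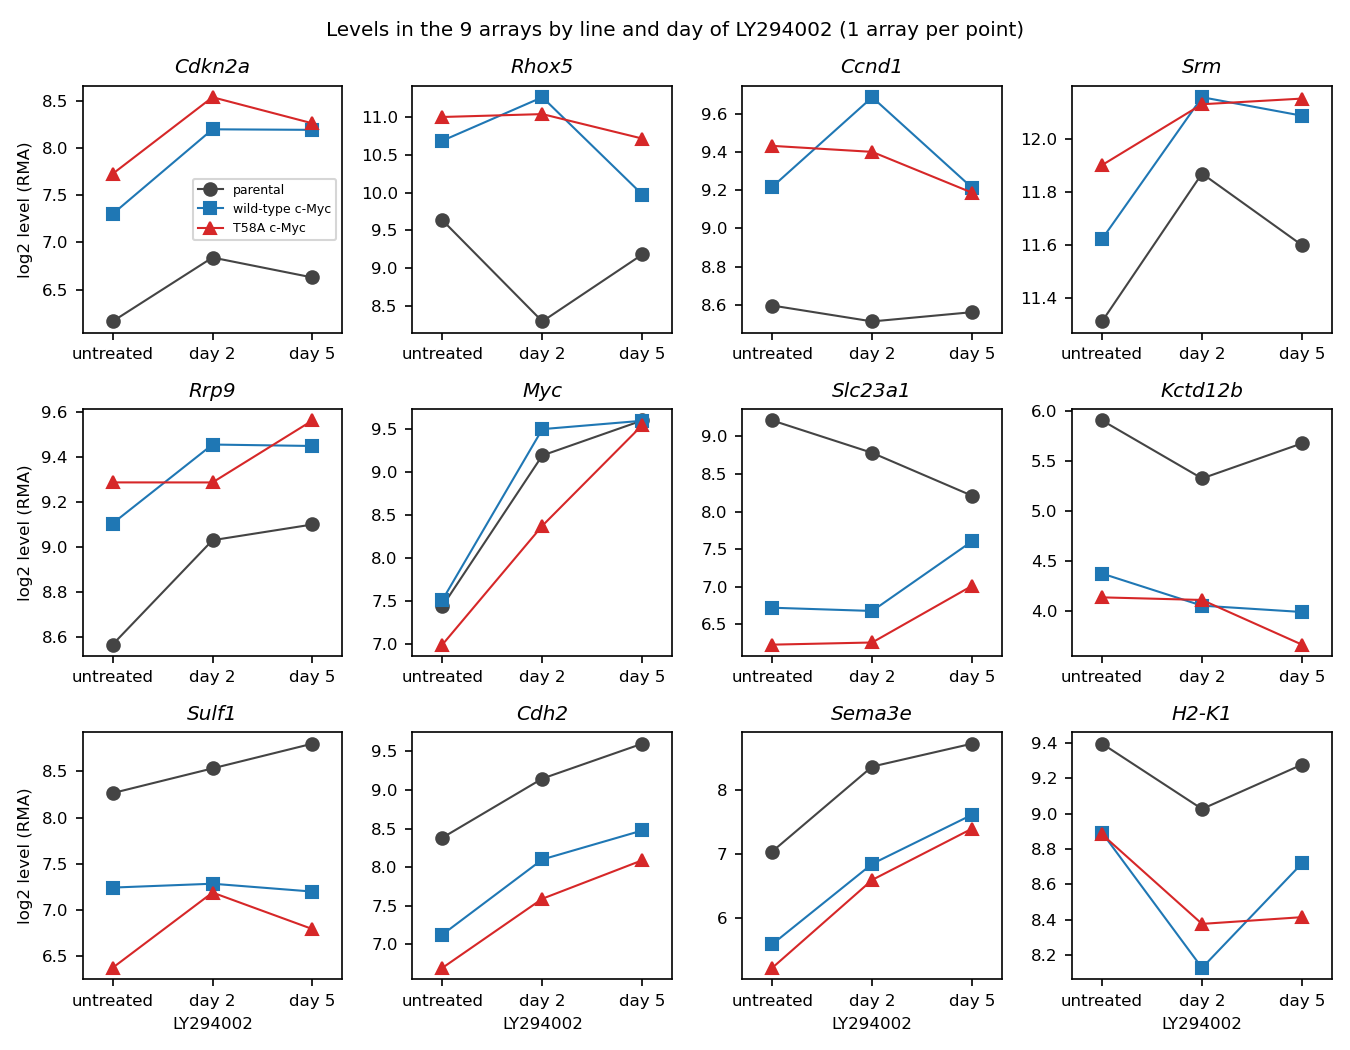
Levels of 12 genes (log2, as deposited) in untreated cells and at days 2 and 5 of LY294002, 1 array per point, for the parental line and the lines with wild-type or T58A c-Myc; each panel has its own vertical scale. Cdkn2a, Rhox5, Ccnd1, Srm and Rrp9 lie higher in both c-Myc lines on each day, Myc does not, and the 6 genes from Slc23a1 to H2-K1 lie lower on each day.

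Gene groups were then read by function, growth first. Ribosome biogenesis, the making of rRNA and its assembly, had 12 of 29 members higher and none lower, against 8.23% and 8.18% of all genes, with 28 of 29 fitted differences above 0 and a median of 0.22. The shifts were small. Rrp9, a component of the U3 snoRNP, read 8.57, 9.03 and 9.10 in parental cells, 9.10, 9.45 and 9.45 in the wild-type line and 9.29, 9.29 and 9.56 in the T58A line. The lowest c-Myc sample thus sat just above the highest parental one (0.46 ± 0.08, adjusted p = 0.014). Bysl, needed for the small subunit, rose by 0.35 (adjusted p = 0.0149) and Rrp12, an export factor, by 0.31 (adjusted p = 0.0218). Bop1, of the large subunit, rose by 0.43, but its other probe set gave -0.27. The other 8 that passed were Fbl, Nolc1, Wdr12, Nop16, Nip7, Wdr43, Gar1 and Nhp2, with differences of 0.20 to 0.45.

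Nucleotide and polyamine synthesis had 13 of 24 members higher (54.2%, against 8.23% of all genes) and none lower, with a median of 0.25. Srm, which makes spermidine, read 11.31, 11.87 and 11.60 in parental cells, 11.62, 12.16 and 12.09 in the wild-type line and 11.90, 12.13 and 12.15 in the T58A line. The parental sample was the lowest of each day (0.42 ± 0.08, adjusted p = 0.0167). Purine synthesis was represented by Adsl (0.40), Gart (0.41), Ppat (0.25) and Atic (0.26), pyrimidine synthesis by Dhodh (0.46) and Umps (0.45). Tk1, thymidine kinase, had the largest rise of the list (0.66 ± 0.14, adjusted p = 0.0197). The remaining 5 that passed were Rrm1 and Rrm2, the subunits of ribonucleotide reductase, Prps1, Prps2 and Mthfd1. Single samples weighed on both counts: 1 ribosome gene and 4 nucleotide genes passed without the day 5 parental sample, 4 and 4 without the day 2 one, 3 and 5 without the untreated one and 3 and 7 without the day 5 T58A sample. Without the day 2 or the day 5 wild-type sample 7 and 6 ribosome genes passed. Neither list had a gene passing without the wild-type line, without the T58A line or with parental replicate 1 added, while the medians stayed between 0.20 and 0.27.

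Other growth functions were counted the same way. In oxidative phosphorylation and the TCA cycle 4 of 27 genes (14.8%) rose and none fell (Sdhc 0.35, Idh3a 0.28, Ndufv1 0.21 and Uqcrc1 0.22). Among translation factors and aminoacyl-tRNA synthetases 2 of 24 rose, Eif3b by 0.27 and Eef1e1 by 0.28, a share of 8.33% that is near the 8.23% of all genes. With single samples left out 0 to 3 rose in each of these lists. In the DNA replication and mitosis list 7 of 29 rose (24.1%) and 2 fell (6.90%). The cyclin E gene Ccne1 had a difference of 0.61 ± 0.07 (adjusted p = 0.00696), with 10.17, 10.78 and 10.64 in parental cells, 10.62, 11.36 and 11.30 in the wild-type line and 10.79, 11.48 and 11.31 in the T58A line. Ccnd1, Ccnd3, Cdc6, Ccna2, E2f1 and Rrm2 were the others that rose, and 3 to 6 did with single samples left out. The 2 that fell were the proliferation antigen gene Mki67 (-0.40) and the cyclin D2 gene Ccnd2 (-0.67).

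In the cell adhesion and extracellular matrix list, 14 of 29 members fell and none rose, against 8.18% lower among all genes, the median was -0.40, and 27 of the 29 fitted differences were below 0. Cdh2, which encodes N-cadherin, read 8.38, 9.15 and 9.60 in parental cells, 7.12, 8.10 and 8.47 in the wild-type line and 6.69, 7.59 and 8.09 in the T58A line. Parental cells were the highest on each day by 1.05 to 1.69 (fitted -1.36 ± 0.14, adjusted p = 0.00653). Cdh1, E-cadherin, which holds ESCs together in colonies, fell by 0.54 ± 0.09 (adjusted p = 0.0121), from 12.01, 12.33 and 12.49 to 11.29, 11.89 and 12.24 in the wild-type line and 11.21, 11.75 and 12.03 in the T58A line.

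Of the tight junction genes 3 fell by at least 2-fold. Cldn7 read 8.09, 9.11 and 10.22 in parental cells, 7.31, 7.60 and 9.38 in the wild-type line and 7.10, 7.94 and 8.90 in the T58A line, lower than parental on every day (-1.10 ± 0.13, adjusted p = 0.00727). Cldn6 (-1.19) and the occludin gene Ocln (-1.05) were the other two, and Cldn4 (-0.51) fell by less, as did Tjp1, the scaffold ZO-1, by 0.28. The epithelial adhesion gene Epcam fell by 0.63 (adjusted p = 0.0108). Of the integrins, which bind the matrix, Itgav (-0.74, with a second probe set above the filter level of opposite sign) and Itgb1 (-0.55) fell, while Itga5, Itgb5 and Itga6 did not pass. Of the basement membrane genes Lama5 (-0.55), Col18a1 (-0.69), Nid1 (-0.46) and Nid2 (-0.41) fell. With single samples left out 11 to 14 of the 29 fell, and no member rose. Without the wild-type line 3 fell, and without the T58A line or with parental replicate 1 added 0 did, at medians of -0.49, -0.33 and -0.32.

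**Figure D3:**
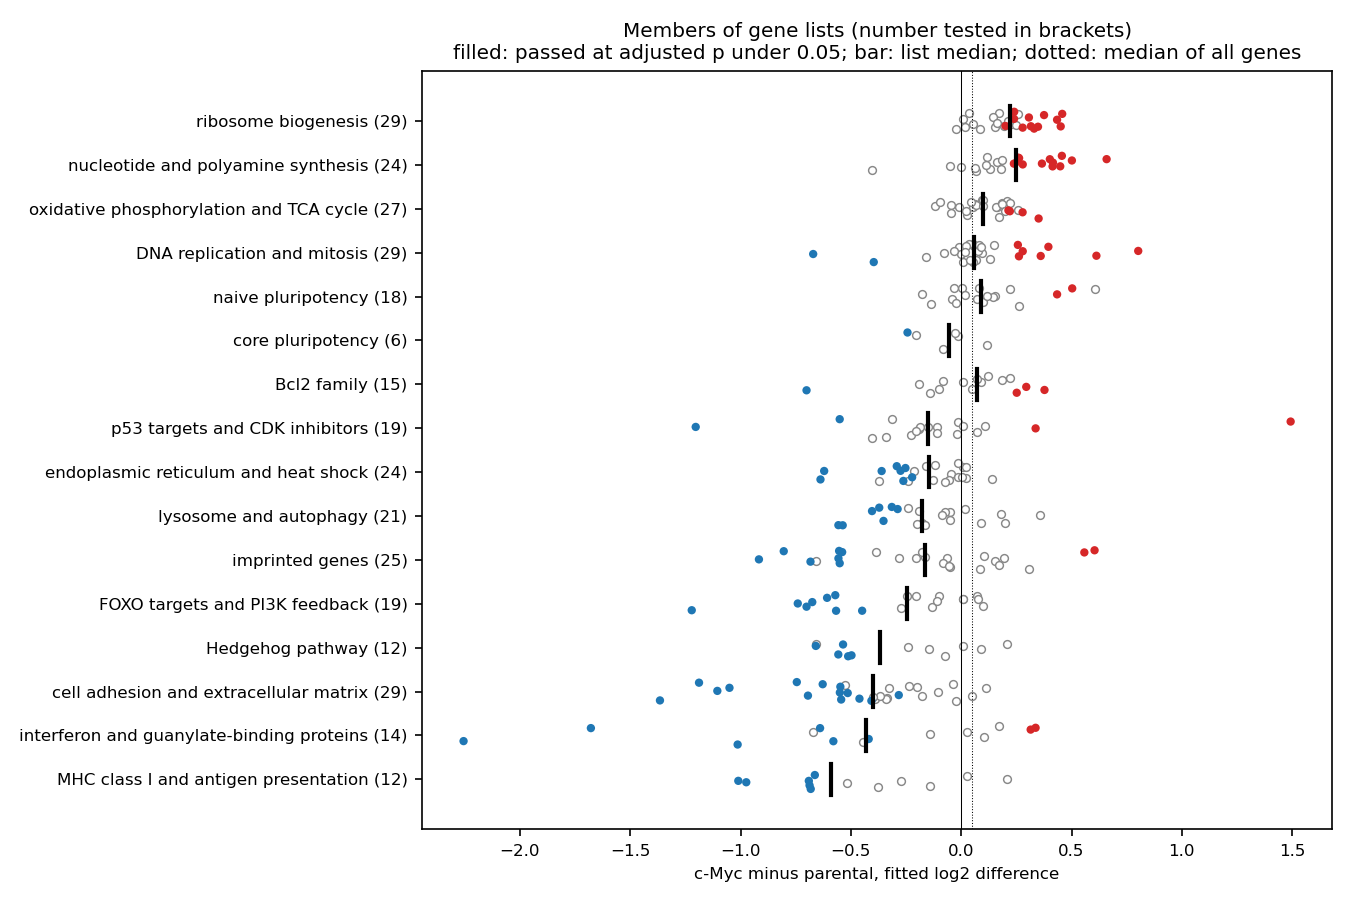
Fitted log2 differences, c-Myc lines minus parental ESCs, for the members of 16 gene lists, 1 point per gene, with genes that passed filled (red higher, blue lower), the list median as a bar and the median of all genes, 0.05, as a dotted line. Ribosome biogenesis lies to the right of 0 except for 1 gene, and cell adhesion lies to the left except for 2.

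The primitive and visceral endoderm list, 6 of whose 19 members fell (31.6%, against 8.18% of all genes) and none rose, held matrix genes as well. Without the day 2 or the day 5 parental sample 3 fell, and 5 to 8 did without any other single sample. The 6 were Sparc (-1.45, with another probe set at 0.14), the laminin genes Lamb1 (-0.79) and Lamc1 (-0.52), the collagen gene Col4a1 (-1.19), the keratin gene Krt18 (-1.39) and Dab2, an adaptor protein (-0.70). The defining transcription factor genes Gata4, Gata6 and Sox17 had differences of 0.13, 0.32 and 0.20, none passing. The mean of the 6 primitive endoderm markers stayed between 4.34 and 4.68 in every sample, near the filter level, and the part of such cells in these differences was not tested. Feeder fibroblast markers averaged 4.10 to 4.37 in parental and 4.25 to 4.32 in c-Myc samples, with Col1a1, Col3a1, Lum and Postn under the filter level in all 9 samples. None of the 7 genes tested from the feeder list passed.

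MHC class I and antigen presentation, the machinery that shows peptides to T cells, had 6 of 12 members lower, against 8.18% of all genes. None was higher, against 8.23% of all genes, and the median was -0.59. H2-K1, a heavy chain, read 9.39, 9.03 and 9.28 in parental cells, 8.89, 8.13 and 8.72 in the wild-type line and 8.88, 8.38 and 8.42 in the T58A line, without overlap (-0.66 ± 0.09, adjusted p = 0.00807). Of the other 5, H2-D1 was lower on each day, while B2m, Erap1, Tapbp and Psmb8 lay within 0.2 of parental cells when untreated. B2m, the light chain, read 9.83, 9.70 and 9.74 in untreated parental, wild-type and T58A cells. It read 8.81, 7.75 and 8.04 at day 2 and 9.51, 8.67 and 8.25 at day 5, where parental cells stood above both lines (-0.69 ± 0.17, adjusted p = 0.0313). The heavy chain gene H2-D1, which has probe sets of both signs, had -0.68, the trimming enzyme gene Erap1 -1.01, the loading chaperone gene Tapbp -0.69 and the immunoproteasome gene Psmb8 -0.97. Without the day 2 or the day 5 parental sample 1 member fell, without the day 2 wild-type, the day 5 wild-type or the day 5 T58A sample 2, 3 and 2 did. With either c-Myc line left out none fell, at medians of -0.57 and -0.65.

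Interferon-induced genes and guanylate-binding proteins gave 6 lower (42.9%) and 2 higher (14.3%) of 14 tested, against 8.18% and 8.23% of all genes. Gbp2, a GTPase of host defence, read 2.85, 2.64 and 2.92 in untreated parental, wild-type and T58A cells, all under the filter level. It read 7.14, 3.18 and 2.98 at day 2 and 9.21, 7.38 and 5.78 at day 5. Its fitted difference of -2.26 ± 0.62 (adjusted p = 0.0418) was the largest fall of all, yet it rested on the treated samples, and 1 of its 6 differences was above 0, which put it outside the rule for named genes. Gbp2b was much alike, with 3.59, 3.89 and 3.56 untreated, 6.92, 4.19 and 4.14 at day 2 and 9.48, 7.54 and 6.59 at day 5 (-1.68, adjusted p = 0.0434). Gbp7 (-1.01), Irgm1 (-0.64), Bst2 (-0.42) and Ifitm1 (-0.58) also fell, and Ifitm2 (0.31) and Rsad2 (0.34) rose. Without the day 2 or the day 5 parental sample no member fell, and without single c-Myc samples 1 to 4 did.

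Genes under FOXO control and feedback genes of PI3K are known to rise when PI3K is inhibited. They had 8 of 19 members lower (42.1%, against 8.18% of all genes) and none higher (median -0.25). Bcl2l11, the gene for the pro-apoptotic protein Bim, read 9.46, 9.60 and 10.55 in parental cells, 8.81, 8.94 and 9.93 in the wild-type line and 8.71, 8.74 and 9.85 in the T58A line. The 6 differences ran from -0.61 to -0.85 (fitted -0.70 ± 0.07, adjusted p = 0.0061). Irs2, an adaptor of the insulin receptor, read 7.36, 7.26 and 6.86 in untreated parental, wild-type and T58A cells, 8.51, 7.72 and 7.30 at day 2 and 8.96, 8.21 and 7.85 at day 5 (-0.74 ± 0.17, adjusted p = 0.0236). Irs1, of the same family, followed the same order (-0.67, adjusted p = 0.0232). The receptor genes Erbb3 (-1.22) and Insr (-0.57) fell by their chosen probe sets, while another probe set of each gave 0.04 and 0.33. Sesn3, Ccng2 and Trib2 completed the 8. Without the day 2 parental sample 3 fell, without the day 5 parental sample 4, without the untreated T58A sample 5, and without the T58A line 0. Of the PI3K and Akt components 1 of 19 rose (Tcl1, an Akt coactivator, 0.50) and 1 fell (Rictor of mTORC2, -0.23, with probe sets of both signs). Each is 5.26%, under the 8.23% and 8.18% of all genes.

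The plot of list medians by day sets these groups side by side. Cell adhesion had medians of -0.32 to -0.51 in all 6 line and day combinations, and ribosome biogenesis 0.15 to 0.26. MHC class I had medians of 0.03 and 0.06 in untreated wild-type and T58A cells, then -0.91 and -0.60 at day 2 and -0.68 and -1.08 at day 5. Interferon genes had -0.01 and 0.01 untreated, and -0.38 to -0.60 under LY294002. The 2 lines share the parental sample of each day, so their medians are not separate evidence.

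**Figure D4:**
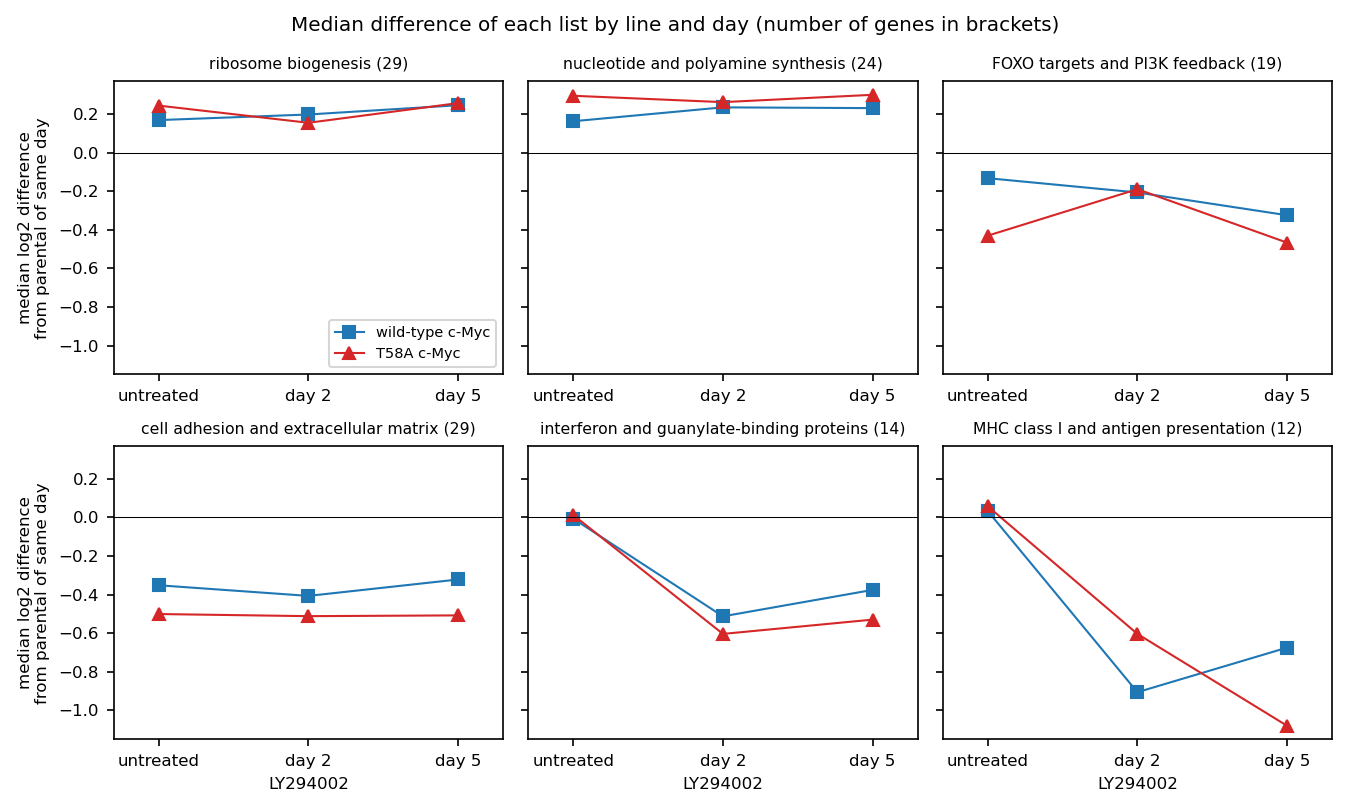
Median log2 difference from the parental sample of the same day for 6 gene lists, separately for the wild-type and T58A c-Myc lines, in untreated cells and at days 2 and 5 of LY294002. The adhesion medians stay between -0.32 and -0.51, while the MHC class I medians are 0.03 and 0.06 untreated and between -0.60 and -1.08 under LY294002.

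Whether the difference between the c-Myc and parental lines varied with day was tested directly. By limma's moderated F test 0 of 13420 genes passed (0.0%), with a smallest adjusted p of 0.0628 and 1651 genes at an unadjusted p under 0.05. The test has 3 residual degrees of freedom, and 65 genes passed with a trended, robust prior. The smallest p belonged to Pttg1, which encodes securin, an inhibitor of the separation of sister chromatids. It read 8.73 in untreated parental cells against 10.94 with wild-type c-Myc and 11.01 with T58A, then 10.87 against 11.34 and 11.29 at day 2 and 11.68 against 12.06 and 11.97 at day 5. The gap thus narrowed from over 2 to under 0.5 on the log2 scale in these samples (adjusted p = 0.0628). Ackr3, a scavenging chemokine receptor, read 6.58 in parental cells against 4.56 and 4.45 at day 2, a larger gap than the 5.71 against 5.00 and 5.02 untreated and the 5.94 against 5.58 and 5.64 at day 5 (adjusted p = 0.0838). Efna5, an ephrin ligand, stood apart mainly at day 5, at 8.31 against 6.37 and 6.11 (adjusted p = 0.0838). Adgrf5 read 5.92 against 4.14 and 4.31 untreated, 4.69 against 4.56 and 4.69 at day 2 and 4.40 against 4.39 and 4.32 at day 5 (adjusted p = 0.0838). The other 2 of the 6 smallest p-values were those of Tnfsf11, the cytokine RANKL, and Mrc2, a collagen receptor. For the genes of antigen presentation the adjusted p of this test was 0.119 for Erap1, 0.31 for B2m and 0.0891 for Psmb8, and for Gbp2 it was 0.18.

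Counted by day without a test, both c-Myc lines were at least 2-fold lower than parental cells for 68 genes untreated (0.507%), 134 at day 2 (0.999%) and 140 at day 5 (1.04%). They were at least 2-fold higher for 11 (0.082%), 7 (0.0522%) and 3 genes (0.0224%) on the same days.

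The 2 lines were next set against parental cells one at a time. The T58A line alone gave 1940 genes (14.5%), 996 higher and 944 lower (7.03%), and the wild-type line 37 (0.276%), 7 higher and 30 lower (0.224%). All 37 were also among the 1940. This is a difference in counts and not a tested difference between the lines, and the fitted values were near each other. Genes that fell in the joint comparison had medians of -0.41 in the wild-type and -0.52 in the T58A line, and genes that rose 0.28 and 0.36. Cdkn2a passed in both, at 1.35 (adjusted p = 0.00469) and 1.63 (adjusted p = 0.0012). Cdh2 did so at -1.14 (adjusted p = 0.0037) and -1.59 (adjusted p = 0.000453) and Sema3e at -1.35 and -1.63. Passing for T58A and not for wild-type, with the largest differences, were Rhox5, Col13a1 and Mcrip2 among the rises and Slc23a1, S100a6 and Anxa3 among the falls. Slc23a1 had -1.73 in the wild-type line (adjusted p = 0.069) and -2.23 in the T58A line (adjusted p = 0.014), each with an SE of 0.34.

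Pluripotency genes passed at shares near the 16.4% of all genes, with 1 of 6 core, 2 of 18 naive (11.1%) and 2 of 14 formative genes (14.3%). Of the core genes the one that fell was the Nodal co-receptor gene Tdgf1 (-0.24, adjusted p = 0.041). Pou5f1, the gene for Oct4, read 12.84, 12.93 and 12.89 in parental cells and 12.94 to 13.07 in the c-Myc samples, a difference of 0.12 that did not pass (adjusted p = 0.167). Differences for Sox2, Nanog and Sall4 were -0.08, -0.04 and -0.01, none passing. Of 18 naive genes 2 rose and none fell. Klf4 read 12.55, 12.68 and 12.63 in untreated parental, wild-type and T58A cells, 11.71, 12.43 and 12.55 at day 2 and 11.88, 12.32 and 12.28 at day 5, so the lines met when untreated and stood apart under LY294002 (0.43 ± 0.11, adjusted p = 0.0326). Tcl1 was the second. Parental replicate 1 lay below both lines for 0 of these 2 genes untreated and for 0 at day 5, against 46.2% and 52.8% of all genes that rose. With it added the naive list's median turned from 0.09 to -0.07. Tbx3 had 0.61 and Esrrb 0.26 without passing. Of 14 formative genes 2 fell, Cdh2 and Pim2. Pim2, a survival kinase gene, read 7.47, 11.00 and 11.04 in parental cells, 6.86, 9.22 and 10.34 in the wild-type line and 6.58, 8.47 and 9.59 in the T58A line, the parental sample being the highest of each day (-1.32 ± 0.28, adjusted p = 0.0205).

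Signalling lists moved by a few members each. Of 12 Hedgehog genes 5 fell (41.7%, against 8.18% of all genes) and none rose (median -0.37). They were Gli1 (-0.51) and Gli3 (-0.56), transcription factors of the pathway, the receptors Ptch1 (-0.66) and Cdon (-0.54), both with probe sets of either sign, and the transducer Smo (-0.50). Gli1 read 8.98, 8.24 and 7.89 in untreated parental, wild-type and T58A cells and was 6.20, 5.97 and 5.76 at day 5, the order being the same while the gap was smaller. Nodal and BMP signalling had 5 of 18 lower (27.8%) and 1 higher (5.56%, against 8.23% of all genes). Smad6, an inhibitor of BMP signalling, fell by 0.99 (adjusted p = 0.00807) and Skil, a repressor of Smad proteins, by 0.73 (adjusted p = 0.0109), while Nodal itself, Tdgf1 and the receptor gene Acvr2b fell by 0.25, 0.24 and 0.42 and Smad7 rose by 0.31. Wnt targets had 4 lower (23.5%) and 2 higher (11.8%) of 17. Lower were Tcf7l2 (-0.60), Sp5 (-0.63), Fzd7 (-0.35, with probe sets of both signs) and Wnt8a, and higher were Ccnd1 and the Wnt antagonist gene Sfrp1 (0.50). Wnt8a was under the filter level in every c-Myc sample. It entered the test through the parental samples alone, so its place in the count is a description. With single samples left out 2 to 4 Hedgehog, 2 to 4 Nodal and BMP and 0 to 3 Wnt genes fell.

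Lists of turnover and stress went in different directions. Of 21 lysosome and autophagy genes 7 fell (33.3%, against 8.18% of all genes) and none rose. Neu1 (-0.54), Npc1, which exports cholesterol from lysosomes (-0.56), and Mcoln1 (-0.35) were lower in every c-Myc sample than in any parental sample. Endoplasmic reticulum and heat shock genes had 8 of 24 lower (33.3%) and none higher. Hspa1b, an inducible Hsp70 gene, fell by 0.62 ± 0.07 (adjusted p = 0.00696), though probes may not separate it from its near copy Hspa1a, and Xbp1, a regulator of the unfolded protein response, by 0.64 (adjusted p = 0.0472). Xbp1 read 11.62 in untreated parental cells against 10.30 in both lines, and 10.23 against 9.88 and 10.21 at day 5. With single samples left out 1 to 7 lysosome genes fell, 1 without the untreated parental sample, and 1 to 5 of the endoplasmic reticulum list. In the Nrf2 and glutathione list 4 of 22 rose (18.2%, against 8.23% of all genes), Nqo1 the most (0.70 ± 0.11, adjusted p = 0.0109). Gstm2 fell by 0.70. With parental replicate 1 added this list's median turned from 0.09 to -0.04.

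Beside Cdkn2a, the p53 and CDK inhibitor list held 1 further rise, Cdkn2c (0.34), and 2 falls, Cdkn1c (-0.55) and the p53 target Perp (-1.20, adjusted p = 0.00832). That is 2 of 19 each way (10.5%), near the 8.23% and 8.18% of all genes. Cdkn1a and Mdm2, the best known p53 targets, had differences of -0.02 and -0.01 and did not pass. Of 15 Bcl2 family genes 3 rose, beside 8.23% of all genes, all for pro-apoptotic proteins, namely Bid (0.38), Bak1 (0.29) and Bik (0.25, with probe sets of both signs), and Bcl2l11 fell. With single samples left out 0 to 2 rose, 0 without the untreated or the day 2 parental sample, and the list's median turned from 0.07 to -0.09 with parental replicate 1 added. The glucose transporter gene Slc2a1 fell by 0.90 ± 0.14 (adjusted p = 0.0109) and the collagen hydroxylase genes P4ha1 and P4ha2 by 0.56 and 0.51. These were the 3 falls among 25 glycolysis and hypoxia genes (12.0%, against 8.18% of all genes). Ankrd37 was the single rise (0.65), a share of 4.0% against 8.23%.

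Imprinted genes had 7 of 25 lower (28.0%, against 8.18% of all genes) and 2 higher. Without the day 2 parental, day 5 parental or day 5 T58A sample 3 fell, and without the untreated parental sample 4 did. With parental replicate 1 added none passed, and the list's median turned from -0.16 to 0.07. Igf2r, which clears IGF2 from the cell surface, fell by 0.55 (adjusted p = 0.0109), the noncoding RNA gene Kcnq1ot1 by 0.92 (adjusted p = 0.00807). The neighbouring noncoding RNA genes Meg3, Rian and Mirg stood lower by 0.80, 0.56 and 0.68. Meg3 read 12.99, 12.91 and 12.71 in parental cells, 12.31, 12.45 and 12.11 in the wild-type line and 11.52, 12.21 and 11.78 in the T58A line, all c-Myc samples below all 3 parental samples compared. In parental replicate 1, with array medians aligned, Meg3 stood at 10.70 and 11.02, below both lines, so parental samples differed among themselves by more than the lines did.

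Because c-Myc binds the E-box, promoters were searched for the letters CACGTG, a sequence that is its own reverse complement, from 250 bases before to 50 after each RefSeq start (GRCm38.p6). Such a match is a description of letters and not of binding. Of 10771 tested genes with a promoter sequence 11.6% had it, against 12.1% of genes that rose and 12.3% of genes that fell. In the ribosome list it was in 4 of 23 promoters, and 1 of the 9 with a sequence that rose had it. It was in 4 of 21 promoters of the nucleotide list, in 5 of 17 of the FOXO and PI3K feedback list, in 1 of 22 of the adhesion list and in 2 of 9 of the MHC list. The windows below show that the motif occurred at genes that moved in either direction. They are the list members of each direction with the smallest p that had a match, 50 bases each, 5′ to 3′ on the gene's strand, with the E-box in capitals.
Igf2r, lower, chr17:12769727-12769776, minus strand: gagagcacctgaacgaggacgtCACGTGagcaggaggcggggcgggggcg
Irs1, lower, chr1:82291527-82291576, minus strand: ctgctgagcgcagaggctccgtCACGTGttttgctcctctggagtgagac
Irs2, lower, chr8:11008946-11008995, minus strand: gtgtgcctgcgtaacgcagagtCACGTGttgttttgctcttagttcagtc
Klf4, higher, chr4:55532630-55532679, minus strand: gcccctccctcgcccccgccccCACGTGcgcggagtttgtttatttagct
Esx1, higher, chrX:137120374-137120423, minus strand: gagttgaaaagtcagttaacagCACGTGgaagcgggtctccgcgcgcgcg
Slc25a31, higher, chr3:40708756-40708805, plus strand: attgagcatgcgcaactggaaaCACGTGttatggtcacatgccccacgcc
Irs1 and Irs2 belong to the FOXO and feedback genes and Igf2r to the imprinted genes, while Klf4 is a naive, Esx1 a trophoblast and Slc25a31 a germ cell gene. Esx1 rose by 0.47 and Slc25a31 by 0.48.

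Every difference rests on the parental samples, and the series holds further ones. Parental replicate 1, untreated and at day 5, lies in another array set, with medians of 5.03 to 5.05 against 5.31 to 5.37 in the 9 arrays compared, so it was set beside them with array medians aligned. For the 84 genes at least 2-fold lower, replicate 1 lay above both c-Myc samples for 52 genes when untreated (61.9%) and for 24 at day 5 (28.6%), where it lay below both for 44. Over all genes with a fitted difference below 0 the shares were 52.5% and 42.9%. Among the 1105 genes that rose, replicate 1 lay below both c-Myc samples for 510 (46.2%) and 583 (52.8%), against 43.9% and 47.7% over all genes with a difference above 0. Adding replicate 1 to the fit left 0 genes passing, with 2773 at an unadjusted p under 0.05.

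The named genes differed in this respect. Replicate 1 lay on the parental side of both lines, untreated and at day 5, for Cdkn2a, Mcrip2 and Ccnd1 among the 12 largest rises and for S100a6, Kctd12b and Trim12c among the 12 largest falls. That is 25.0% of each set, against 38.4% of all genes that rose and 30.6% of all that fell. Kctd12b, counted here, entered the test through the parental samples alone. Cdkn2a read 4.77 and 5.39 in replicate 1 on the aligned scale, lower still than the 6.14 and 6.61 of replicate 2 and far under the 7.27 to 8.29 of the c-Myc lines. It read 7.41 and 7.56 in the samples without doxycycline that the labels call Max-null and p110 alpha-overexpressing Max-null, near the 7.27 and 7.72 of the untreated c-Myc lines. Slc23a1, by contrast, read 6.84 and 6.80 in replicate 1 against 9.19 and 8.19 in replicate 2, close to the untreated c-Myc lines (6.69 and 6.22) and under those at day 5 (7.63 and 7.04). Rhox5 read 9.74 in untreated replicate 1, on the parental side, but 10.41 at day 5, between the 2 lines.

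The lists were counted in the same way. Over all genes that fell, replicate 1 lay above both lines for 54.7% when untreated and 37.9% at day 5. Of the 14 adhesion genes that fell, it did so for 11 and for 1. Of the 6 antigen presentation genes it lay above both for 1 and for 0, and of the 8 FOXO and feedback genes for 5 and 3. Over all genes that rose, it lay below both for 46.2% and 52.8%. Of the 12 ribosome genes that rose it lay below both for 8 at each time, and of the 13 nucleotide genes for 6 and 9.

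**Figure D5:**
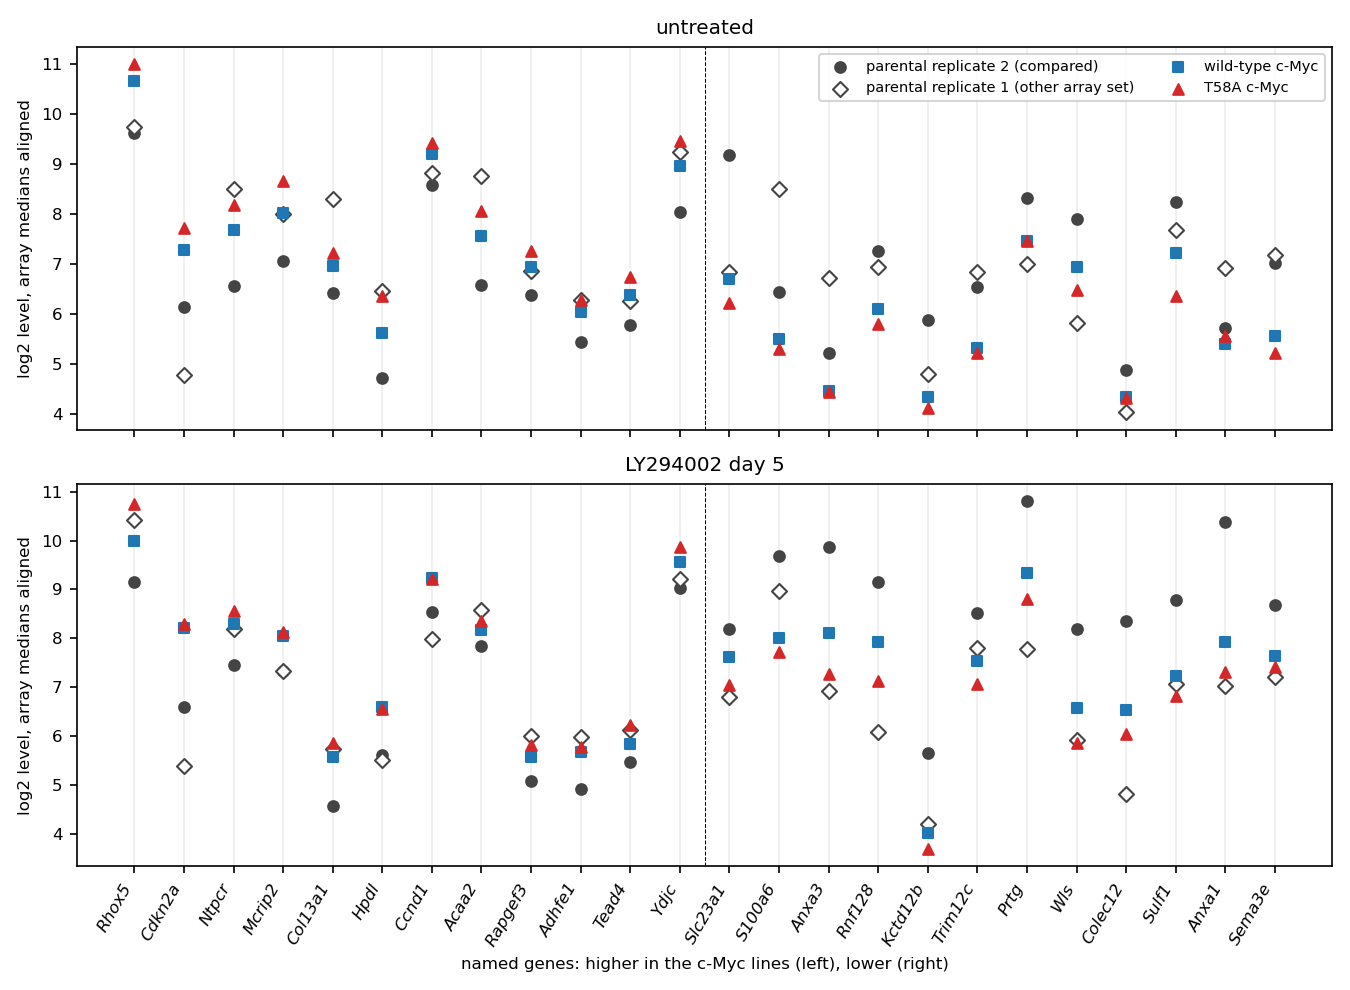
Log2 levels with array medians aligned, for the 12 largest rises and the 12 largest falls, in parental replicate 2 (filled circles), parental replicate 1 from the other array set (open diamonds) and the wild-type and T58A c-Myc lines, untreated above and LY294002 day 5 below, 1 array per point. Cdkn2a and Ccnd1 are lower in both parental replicates than in both lines at both times, whereas Slc23a1 in replicate 1, at 6.84 and 6.80, is near the c-Myc lines.

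The cells carried the marks of ESCs throughout. The 6 markers Pou5f1, Sox2, Nanog, Sall4, Zfp42 and Esrrb averaged 11.92 to 12.45 in parental and 12.10 to 12.37 in c-Myc samples, and none passed. Correlations between any of the 9 arrays over genes ran from 0.976 to 0.998. RNA was taken from whole cultures, in which fewer cells of a kind and less RNA per cell cannot be told apart.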

How the data were processed

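RNA was measured on Affymetrix arrays from TRIzol extracts as biotinylated cRNA, per the labels' protocols. The authors deposited log2 probe set values computed with RMA in the affy package, per the submitters' processing notes; versions were not given in the sources used here. Of 45101 probe sets, 34945 named 1 gene in the platform annotation, 932 several and 9160 none, and 64 were controls; 34741 matched a reference gene. Each of 18193 genes took its probe set with the highest mean over 18 arrays (9009 had several). Genes with at least 2 of 9 samples above 4.64, the 40th percentile of the table, were tested.

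The day block, line contrasts and their interaction with day were fitted with limma 3.58.1 (lmFit, eBayes; R 4.3.3) with 5, 4 and 3 residual degrees of freedom, 2-sided, Benjamini-Hochberg adjusted over 13420 genes at 0.05. The fits were tested on simulated data. Named genes were the 12 largest rises and 12 largest falls that passed with the same sign in all 6 differences, the 4 smallest p-values of each list described and the 6 smallest of the test by day; other list members were named after their values were seen. For a single line the rule took the 3 largest differences each way that passed only there. The samples, the 38 gene lists and the tests were chosen with earlier results of these data known. An array value has no read or cell count, so the number of arrays limits precision. Alternatives changed the filter, scaling, probe set, prior, threshold, blocks and samples.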

Additional observations from a re-analysis of the deposited data

How the results depend on the processing

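The count of 2203 genes was 3996 at a threshold of 0.1, 142 at 0.01, 1 without the day block, 4322 with line as a random block (correlation -0.143), 60 without the wild-type line, 0 without the T58A line, 858 without the untreated samples, 266 without day 2, 204 without day 5 and 0 with parental replicate 1 added and arrays centred. With line as a random block all parental samples form a single block and the estimated correlation is negative, so the larger count there is no support. Leaving out single samples gave 690 (without the day 5 parental sample) to 1877, and 703 without the day 2 parental sample. With arrays centred the split was 1568 higher and 993 lower, and other filters, scalings, probe sets and priors gave 1803 to 2638. The wild-type count of 37 was 254 with the filter at the 60th percentile, 144 after quantile normalization, 423 with a trended and robust prior, 671 at 0.1, 4 at 0.01, 0 without the day block and 0 to 298 without single samples. The T58A count of 1940 was 3629 at 0.1, 70 at 0.01, 0 without the day block and 313 to 1399 without single samples, and centring split it into 1614 higher and 836 lower. The count by day, 0, was 7 without a filter, 1 with the filter at the 60th percentile, 2 with the mean of probe sets, 65 with a trended and robust prior, 34 at 0.1 and 0 to 34 without single c-Myc samples; it could not be fitted without a parental sample. The 24 named genes kept their direction in all 575 values under alternatives and passed in 452. These counts include Kctd12b, which entered the test through the parental samples alone, so its passing is no support. All 24 were chosen for having the same sign in every difference from the parental sample of the day. Leaving out samples, days or a line, or dropping the day block, therefore could not turn their direction, and its constancy there is no support. Adding replicate 1 could have turned it, and there all 24 kept their direction but none passed. With replicate 1 added, signs turned for Canx (0.0286), Ccnd3 (-0.10), E2f1 (-0.0472), Edem1 (0.12), Esx1 (-0.013), Hspa1a (0.0029), Ifitm2 (-0.16), Meioc (0.027), Rian (0.65), Scd1 (-0.0365) and Wnt8a (0.0324), none passing; the cause was not tested. Samples were matched by day, which is in every fit except those named as without the day block. Day is the only shared label, so no further pairing was possible.

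With 1 parental sample per day, each difference rests on that sample, and the 2 c-Myc lines share it. Line, culture and array set cannot be told apart between parental replicates.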

Other observations

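The X chromosome held 60 genes that fell among its 413 tested (14.5%) and 27 that rose (6.54%), at a median difference of -0.01, while on single autosomes between 5.1% and 11.6% of genes fell. Rhox5, Rnf128, Kctd12b and Pim2 are among its genes.

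The series also holds samples labelled Max-null, and Max-null overexpressing p110 alpha, each without doxycycline, which were set beside the untreated c-Myc lines with array medians aligned. Of the 84 genes at least 2-fold lower in the c-Myc lines, the Max-null sample lay above both untreated c-Myc samples for 56 (66.7%) and the p110 alpha sample for 62 (73.8%), beside 55.9% and 50.4% over all genes with a difference below 0. Of the 1105 genes that rose, they lay below both for 622 (56.3%) and 932 (84.3%), beside 50.8% and 64.2% over all genes with a difference above 0. Each of these is a single sample, so no test was made.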
